A study of Mus musculus with 6 samples.

Results

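The methylomes of male germ cells from 2 Tex15 knockout pups (Tex15-/-, replicates 3 and 16) were compared with those of 2 heterozygous pups (Tex15+/-, replicates 7 and 18) from the same kind of cross, a mating of heterozygous parents. DNA came from testes at postnatal day 2.5, on a mixed strain background, and each library was made from the sorted germ cells of an individual pup. All 4 samples carried Oct4-GFP, the green fluorescent reporter used for sorting, which is driven by regulatory sequence of Pou5f1. The series holds 6 samples in all, and the wild-type pups were not used here. Autosomal CpGs were summed over both strands in windows of 1 kb, called tiles. Of 2016188 autosomal tiles with a CpG in the table, 396129 had at least 3 CpGs and at least 10 calls per sample in all 4, and these were compared. A call is a cytosine read as methylated or unmethylated in a bisulfite read, and a level is the percentage of calls that were methylated.

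Tex15 encodes a large germ-cell protein that acts in the piRNA pathway of the fetal testis. In this pathway, small RNAs bound to PIWI proteins direct new DNA methylation to young, still active retrotransposons while the male germ line regains its methylation around birth. The promoters of young LINE-1 elements and of IAP endogenous retroviruses are its best-known targets. No repeat annotation was used here, so repeated sequence is described by the spacing of its CpGs and is not assigned to a named element.

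One knockout library stood apart before any comparison. In Tex15KO 3, 74.4% of the listed cytosines had no call, against 10.2% in Tex15HT 7, 4.82% in Tex15HT 18 and 1.71% in Tex15KO 16. Among its cytosines with 6 to 10 calls, 96.5% had calls that were all alike, whereas this share lay between 63% and 68.3% in the other libraries. Total calls ranged from 27495658 in Tex15KO 3 to 52935635 in Tex15KO 16. The 10 most deeply read tiles held 41.9% and 41.0% of the calls of the heterozygous samples, and 23.3% and 38.6% of those of the knockouts. Results are therefore given per sample. At imprinting control regions, which mark the parental origin of a chromosome, the H19-Igf2 region was at 89.3% and 100% in heterozygous and 96.9% and 93.2% in knockout samples. The Rasgrf1 region, also methylated in the male germ line, lay between 27.4% and 40.4% in all 4 samples. The windows of the imprinting control regions were set from general knowledge, and their placement was not checked. Of 9 regions methylated in the female germ line, the median level was 2.45%, 3.89%, 0.556% and 4.95% in Tex15HT 7, Tex15HT 18, Tex15KO 3 and Tex15KO 16. Somatic cells would carry about equal shares of both states at each such region. The main exception was Plagl1, listed at 73.5% in Tex15KO 3 on 49 calls and at 4.95% or less in the other samples. Peg3 was at 17.2% in Tex15KO 3 on 93 calls, and at 2.88%, 7.30% and 7.21% in Tex15HT 7, Tex15HT 18 and Tex15KO 16.

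Sequences that carry CpG spacings of the families with the largest losses are shown first. A family was defined as all places where the same distances in bp, read in either direction, separate 6 successive CpGs. It is named by these 5 distances. The sequences are 300-base promoter windows from RefSeq on GRCm38.p6, 5′ to 3′, chosen as the promoters that best matched each family's CpG map. Capitals mark the CpGs that fell on the map. They show what such a unit looks like, and are not the measured copies. The window of Gm35240 (chr12:77553461-77553760, plus strand) matched families 3-7-13-4-21 and 4-13-7-3-37, and it repeated itself at a shift of 212 bases with 96.6% identity over 88 bases.
Gm35240: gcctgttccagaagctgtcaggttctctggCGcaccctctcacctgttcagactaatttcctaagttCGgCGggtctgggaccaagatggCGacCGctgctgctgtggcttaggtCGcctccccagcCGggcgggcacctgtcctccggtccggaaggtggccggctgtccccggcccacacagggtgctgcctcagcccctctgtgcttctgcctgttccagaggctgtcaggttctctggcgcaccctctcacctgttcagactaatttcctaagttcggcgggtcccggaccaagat
The window of Gm41315 (chr15:42942099-42942398, plus strand) matched family 4-5-15-4-12 at 8 of its 12 CpGs.
Gm41315: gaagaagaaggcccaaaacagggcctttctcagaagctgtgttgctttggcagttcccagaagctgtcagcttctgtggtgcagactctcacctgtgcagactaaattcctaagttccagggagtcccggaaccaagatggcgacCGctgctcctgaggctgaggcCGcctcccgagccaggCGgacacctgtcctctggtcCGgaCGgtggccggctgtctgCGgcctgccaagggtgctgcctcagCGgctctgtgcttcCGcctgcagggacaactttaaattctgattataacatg
The window of A230004M16Rik (chr11:41710094-41710393, plus strand) held families 7-7-5-4-29 and 4-5-7-7-35, and repeated itself at a shift of 208 bases with 97.8% identity over 92 bases.
A230004M16Rik: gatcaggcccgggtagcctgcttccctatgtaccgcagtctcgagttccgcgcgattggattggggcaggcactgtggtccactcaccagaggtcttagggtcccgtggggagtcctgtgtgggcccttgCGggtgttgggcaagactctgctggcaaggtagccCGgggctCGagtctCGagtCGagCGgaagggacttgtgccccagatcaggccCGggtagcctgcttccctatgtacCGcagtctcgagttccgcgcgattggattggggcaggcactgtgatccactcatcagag
The window of Gm33462 (chr4:7133723-7134022, plus strand) held family 2-6-2-4-13.
Gm33462: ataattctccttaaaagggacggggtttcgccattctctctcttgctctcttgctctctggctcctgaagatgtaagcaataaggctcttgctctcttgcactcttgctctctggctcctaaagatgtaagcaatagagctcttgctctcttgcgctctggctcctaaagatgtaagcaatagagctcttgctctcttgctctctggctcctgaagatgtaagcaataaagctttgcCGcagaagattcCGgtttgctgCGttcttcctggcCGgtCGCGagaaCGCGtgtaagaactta
Among 32851 promoter windows read on both strands, the exact spacing 7-7-5-4-29 occurred in 2 and that of 2-6-2-4-13 in 7. The spacings 3-7-13-4-21, 4-13-7-3-37 and 4-5-15-4-12 had no exact match, so their windows are the nearest ones.

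Among families of repeated CpG spacing, 5 that were highly methylated in heterozygous samples lost most of their methylation in both knockouts. These 5 overlap in part and share some of their CpGs. Of 573 families tested, 10 were lower (1.75%) and 1 was higher (0.175%) in the knockouts at an adjusted p under 0.05 by edgeR's quasi-likelihood test with Benjamini-Hochberg adjustment. Without adjustment 33 were lower and 10 higher. The test by limma called 0 families, with a lowest adjusted p of 0.0648 and 32 lower and 3 higher before adjustment. edgeR's estimate of the spread was shared fully between families, so its p-value does not measure the spread between pups at a single family. An exact permutation test of 2 against 2 samples cannot go below 0.333, the value it gave for each family described next.

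Family 4-5-15-4-12 had 10 copies on 9 chromosomes. Its level was 78.8% and 82.6% in Tex15HT 7 and 18, on 193 and 293 calls, and 5.79% and 7.29% in Tex15KO 3 and 16, on 380 and 549 calls. Both knockouts were far below both heterozygous samples, by 74.1 points on average, and edgeR gave an adjusted p of 1.94e-06. Family 3-7-13-4-21, with 49 copies on 17 chromosomes, was at 80.9% and 79.1% in heterozygous and 12.6% and 13.8% in knockout samples. Its 1582 to 2679 calls per sample gave 95% Wilson intervals from 77.0% to 81.0% in Tex15HT 18 and from 12.6% to 15.2% in Tex15KO 16, and the edgeR adjusted p was 3.28e-17. Family 4-13-7-3-37 was at 80.9% and 76.3% against 12.4% and 13.4% (edgeR adjusted p = 3.69e-11). Intervals of this kind, and limits given for a count of 0, cover counting error only, since PCR copies of 1 molecule were not marked by identifiers.

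The second group of spacings retained somewhat more methylation. Family 7-7-5-4-29 was at 85.9% and 86.7% in heterozygous and 21.7% and 22.6% in knockout samples over 29 copies, with an edgeR adjusted p of 9.45e-12. Family 4-5-7-7-35 was at 83.2% and 79.8% against 21.5% and 20.7% over 34 copies, with an edgeR adjusted p of 1.62e-11. In each of these 5 families the 2 knockouts lay closer to each other than to either heterozygous sample. The families share sequence: 9 of 22 copies of 4-13-7-3-37 lay within 300 bp of a copy of 3-7-13-4-21. So did 4 of 10 copies of 4-5-15-4-12. Likewise 8 of 29 copies of 7-7-5-4-29 lay within 300 bp of one of 4-5-7-7-35. Read in the other direction, 4-13-7-3-37 holds the first 4 distances of 3-7-13-4-21, and 7-7-5-4-29 holds those of 4-5-7-7-35. The 5 families are therefore not independent. Without Tex15KO 3 all 5 stayed called, with edgeR adjusted p-values of 6.36e-08 or less, where the lone knockout is assumed to vary like the heterozygous samples. Without Tex15HT 18, family 4-5-15-4-12 was no longer called (edgeR adjusted p = 0.0762).

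**Figure D1:**
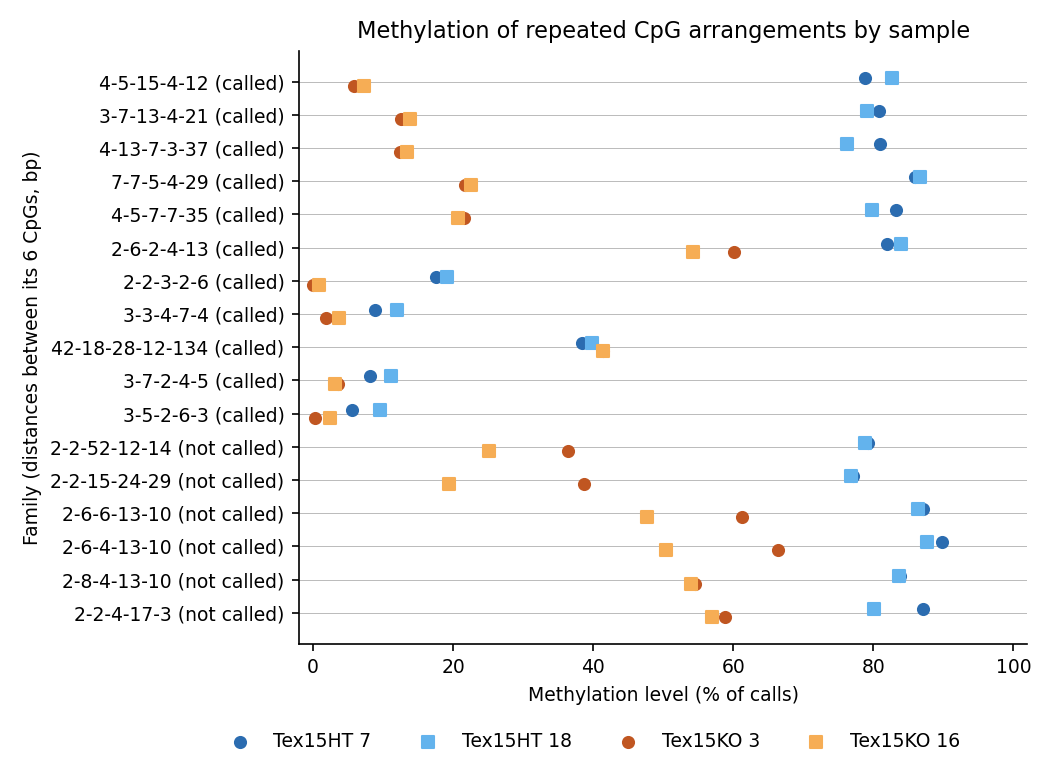
Level of families of repeated CpG spacing (x axis, percent of calls methylated), 1 family per line with whether edgeR called it and 1 point per sample. The 5 families at the top lie between 76.3% and 86.7% in Tex15HT samples and between 5.79% and 22.6% in Tex15KO samples.

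Single copies followed their family. Of copies with 5 or more calls in every sample, both knockouts were below both heterozygous samples in 9 of 9 for 4-5-15-4-12, 38 of 39 for 3-7-13-4-21, 18 of 19 for 4-13-7-3-37, 24 of 26 for 7-7-5-4-29 and 26 of 29 for 4-5-7-7-35. Over all 573 families, counted whole and not by copy, the share with this order was 19.5%, and 12.9% had the opposite order. Of these families 458 were under 20% in heterozygous samples, with little room to fall. The 5 families were chosen for their loss in the same calls, so the shares of copies are a description. The most deeply read copy of 4-13-7-3-37, at mm9 4:88022228-88022293, was at 83.6% and 82.5% in heterozygous and 12.5% and 13% in knockout samples, on 189 to 300 calls. A copy of 4-5-7-7-35 at 13:40721644-40721911 was at 89.5% and 95.8% against 5.90% and 18.2%. A copy of 4-13-7-3-37 at 12:103213825-103213890 was almost free of methylation in every sample, at 0% and 3.39% against 0% and 1.52%. Near-identical copies can exchange reads, and how reads with several matches were placed is not given in the sources used here.

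Family 2-6-2-4-13 was lowered less and far less evenly. Its 143 copies on all 19 autosomes were at 82.0% and 83.9% in heterozygous and 60.1% and 54.3% in knockout samples, with an edgeR adjusted p of 0.000232. Its loss was not called without Tex15HT 7 (edgeR adjusted p = 0.0511) or without Tex15HT 18 (0.154). Of 46 copies with 5 or more calls in every sample, 19 had both knockouts below both heterozygous samples. The copies ranged from 0% to 100% in either knockout and in Tex15HT 18, and from 33.3% to 100% in Tex15HT 7. Their medians were 90.1% and 91.3% in heterozygous and 83.3% and 61.2% in knockout samples. The copy at 19:33089055-33089105 was at 85.2% and 100% in heterozygous and 0% and 27.3% in knockout samples. The copy at 13:104739420-104739462 was at 78.5% and 90.7% against 92.9% and 87.0%, with no loss in either knockout.

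**Figure D2:**
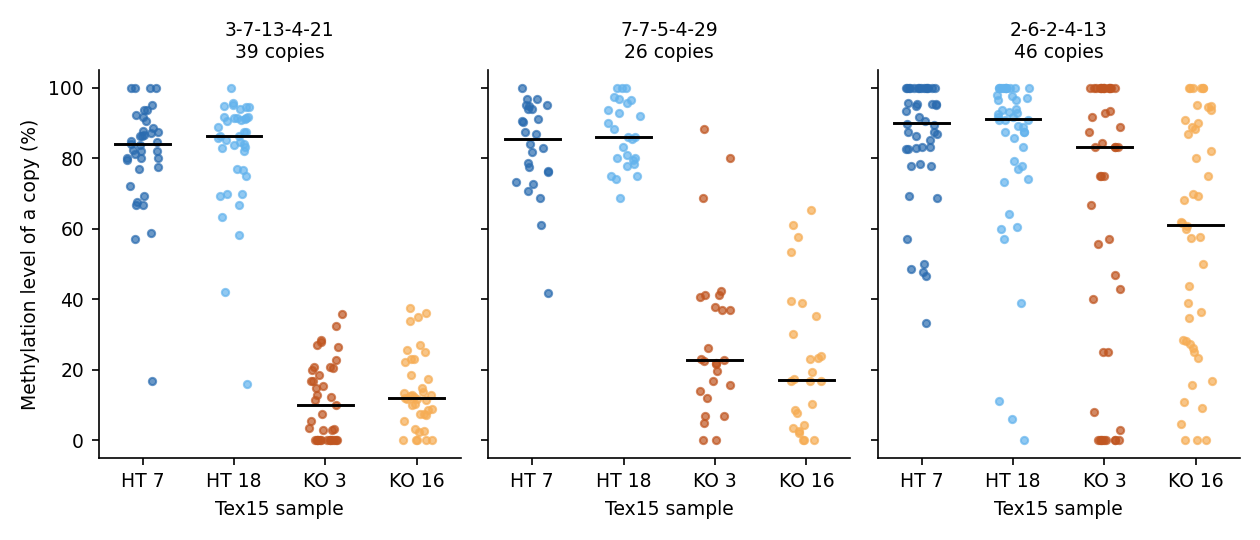
Level of single copies (y axis, percent) of families 3-7-13-4-21, 7-7-5-4-29 and 2-6-2-4-13 in each sample, 1 point per copy with 5 or more calls in every sample and a bar at the median, with points spread sideways for visibility. Medians in Tex15KO 3 and 16 were 9.92% and 12.1%, 22.7% and 17.1%, and 83.3% and 61.2%. Copies of 2-6-2-4-13 reach from 0% to 100% in both knockouts and in Tex15HT 18.

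Other highly methylated families were mixed. Of 34 families above 60% in heterozygous samples, 20 had both knockouts below both heterozygous samples and 3 had both above, with a median difference of -14.6 points against -0.114 over all families. These include the 6 called lower, and of the 28 not called, 14 had both knockouts below and 3 both above. In this group 7 families were lower by over 30 points. Families 2-2-52-12-14 and 2-2-15-24-29 were among them but were not called. The first was at 79.2% and 78.9% against 36.4% and 25.1% (edgeR adjusted p = 0.276), and the second at 77.0% and 76.8% against 38.7% and 19.4% (edgeR adjusted p = 0.279). Among families that are largely unmethylated in heterozygous samples, 4 were called lower. Family 2-2-3-2-6 was at 17.6% and 19.1% against 0% and 0.888%, where 0 of 209 calls in Tex15KO 3 allow a level of up to 1.44%. Only 4 of its 17 copies had 5 or more calls in Tex15KO 3, and 1 of these 4 had both knockouts below both heterozygous samples. In each heterozygous sample 14 of the 17 copies were below 50%. The call was lost without Tex15HT 7 (edgeR adjusted p = 0.266) or Tex15HT 18 (0.355). The other 3 drew over 90% of their calls from 1 deeply read copy, and of these family 3-3-4-7-4 was at 8.77% and 11.9% against 1.80% and 3.64%. The only family called higher, 42-18-28-12-134, was at 38.4% and 39.8% against 41.4% and 41.4%, with 88.1% of its calls from 1 copy.

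Across all tiles, large losses outnumbered large gains. Both knockouts were over 30 points below both heterozygous samples in 2154 tiles (0.544%) and over 30 points above them in 283 (0.0714%). At a margin of 70 points the counts were 220 and 3. With no margin the order turned, with 35037 tiles lower (8.84%) and 69662 higher (17.6%). The median tile was at 100% in Tex15KO 3, against 92.0% in Tex15HT 7, 90.7% in Tex15HT 18 and 91.1% in Tex15KO 16. The number of tiles just inside the margin of 30 points, up to 32 points, was 169, and just outside, down to 28 points, it was 208. Taken alone, Tex15KO 16 was over 30 points below both heterozygous samples in 3635 tiles and above them in 615, and Tex15KO 3 in 28154 and 10035. By comparison, the heterozygous samples differed from each other by this margin in 4855 tiles in one direction and 4879 in the other. No test was made of these counts. The excess of losses was smaller against a single heterozygous sample: without Tex15HT 7 there were 3210 lower and 2168 higher tiles, and without Tex15HT 18 there were 3401 and 2558.

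**Figure D3:**
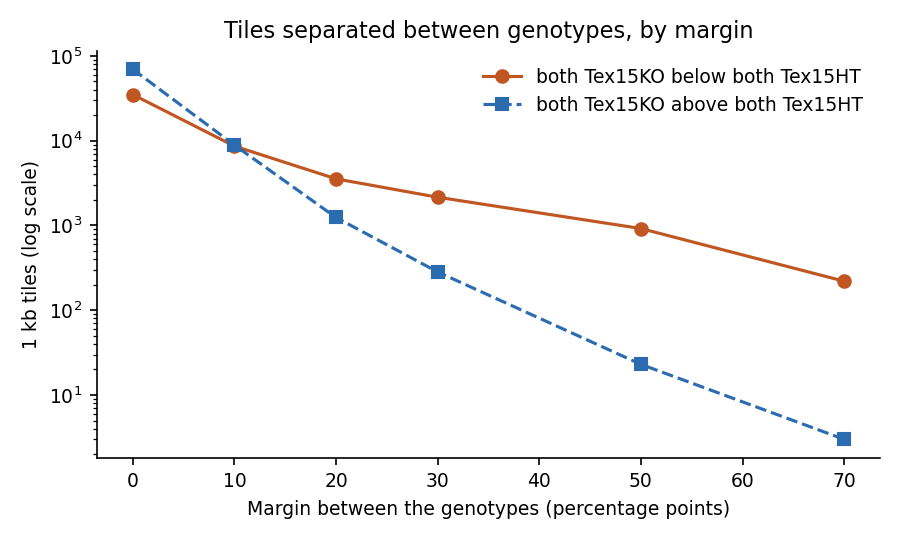
Number of tiles (log y axis) in which both Tex15KO samples lie below, or above, both Tex15HT samples by more than the margin on the x axis (percentage points). Lower tiles outnumber higher ones at margins of 20 points and more, from 3549 against 1242 to 220 against 3.

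The tiles that were lower by over 30 points were mostly isolated among the tested tiles. They formed 2048 regions, of which 1947 were single tiles, 96 were pairs and 5 were runs of 3. Each of the 19 autosomes held some, chromosome 11 the smallest share of its tested tiles (0.305%) and chromosome 3 the largest (0.835%). The next tile was tested for only 353 of the 2154, and it was lower too in 30% of these. The tile 3 kb away was lower in 1.42% of cases. Their mean level was 79.1% and 78.6% in heterozygous and 11.6% and 21.7% in knockout samples, the values that chose them. Tiles of 10 to 19 CpGs were lower in 0.819% of cases, against 0.493% for 3 to 9 CpGs and 0.145% for 20 or more. The heterozygous means over tiles of these classes were 68.0%, 86.5% and 7.56%. Most tiles of 20 or more CpGs therefore started too low to be over 30 points lower. A recurring CpG spacing was found in 5.8% of the lower tiles and in 1.08% of all tested tiles.

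Short runs from the CpG maps of the families were found in more tiles than the full spacings. A run of 3 successive distances from the maps of 3-7-13-4-21, 4-13-7-3-37 and 4-5-15-4-12 was present in 742 tested tiles, of which 119 (16%) were lower by over 30 points and 0 were higher. For the maps of 7-7-5-4-29, 4-5-7-7-35, 2-2-52-12-14 and 2-2-15-24-29 the numbers were 994 and 106 (10.7%), and for the map of 2-6-2-4-13 they were 1631 and 49 (3.0%). Tiles with none of these runs were lower in 0.479% of cases. Most lower tiles, 87.4%, therefore held none of the runs searched. The tiles also started unlike: heterozygous means were 29.8%, 22.8% and 21.8% for the maps in the order given, against 79.6% for tiles with none. Whether tiles with a run hold copies of the families was not tested. These maps came from families chosen for their loss in the same samples, so the shares are a description.

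The loss was next read in a knockout sample that had not chosen the tiles. In 3403 tiles Tex15KO 16 was over 40 points below Tex15HT 7, and in these the unused samples were at 36.4% ± 38.4 (SD over tiles) in Tex15KO 3 and 71.9% ± 21.3 in Tex15HT 18. Over all tested tiles the same samples were at 79.4% and 78.8%. A level of 20% or less was found in 49.4% of these tiles in Tex15KO 3 and in 2.73% in Tex15HT 18. Chosen the other way, in 24271 tiles where Tex15KO 3 was over 40 points below Tex15HT 7, Tex15KO 16 was at 76.5% and Tex15HT 18 at 81.1%. Few of the tiles that were low in Tex15KO 3 were thus low in Tex15KO 16, whereas many of those low in Tex15KO 16 were low in Tex15KO 3.

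Around the centres of the 3224 regions chosen in Tex15KO 16, the unused samples differed over a short distance. Within 0.5 kb of the centre Tex15KO 3 was at 32.4% and Tex15HT 18 at 70.7%. At 0.5 to 1 kb they were at 44.7% and 66.1%, and at 1 to 2 kb at 62.5% and 71.0%. At 4 to 8 kb they were at 75.1% and 75.6%, a difference below 1 point.

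**Figure D4:**
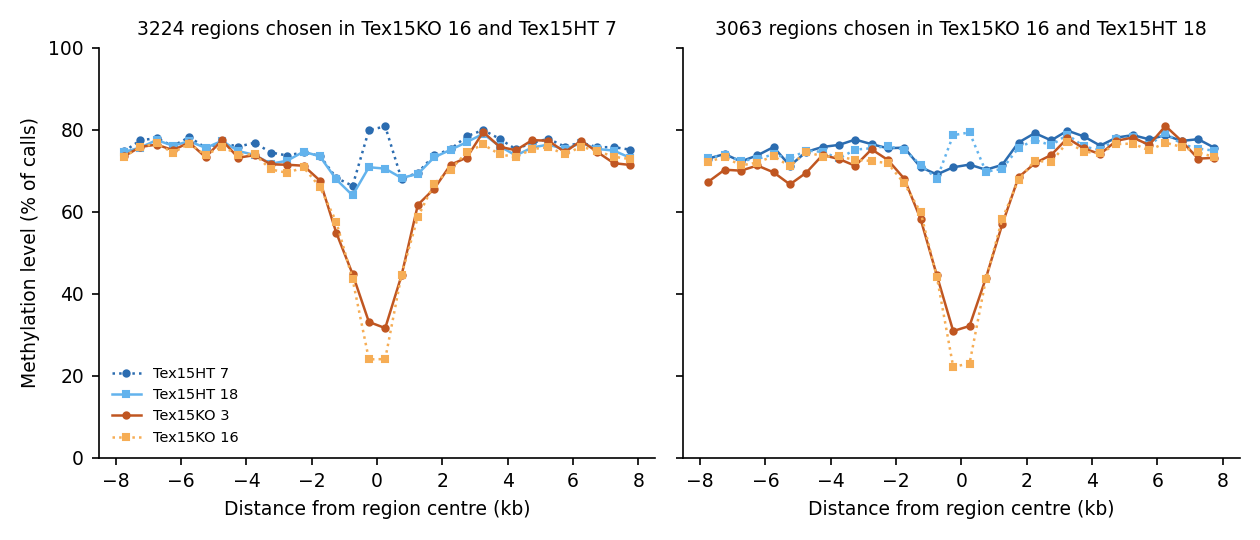
Level (y axis, percent of calls) in bins of 0.5 kb against distance from the centre of regions where Tex15KO 16 was over 40 points below Tex15HT 7 (left) or Tex15HT 18 (right), with dotted lines for the samples that chose the regions and solid lines for those that did not. In the left panel Tex15KO 3 falls to 32.4% within 0.5 kb of the centre against 70.7% in Tex15HT 18, and in the right panel to 31.5% against 71.2% in Tex15HT 7.

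Few single tiles passed a test. edgeR called 11 tiles lower (0.00278%) and 3 higher (0.000757%) at an adjusted p under 0.05, and 10 of the 14 had 1000 or more calls in every sample. Without adjustment 2340 of the 396129 tested tiles were lower and 1043 higher. By limma 0 tiles were called, with a lowest adjusted p of 0.125 and 8422 lower and 8703 higher before adjustment. The unadjusted counts of either test are a small share of the tested tiles and do not by themselves show a difference. The largest called decrease lay at mm9 2:150921001-150922000, at 83.7% and 78.6% in heterozygous and 6.97% and 11.1% in knockout samples, on 368 to 641 calls (edgeR adjusted p = 0.0434). It was not called without Tex15HT 7 or without Tex15HT 18 (edgeR adjusted p = 1.0 for each), nor with the deepest cytosines left out (1.0) or capped (0.838). On chromosome 11, the tile at 3092001-3093000 was at 66.5% and 65.5% against 16.4% and 14.9%, and the next, at 3093001-3094000, at 73.2% and 69.8% against 30.4% and 24.1%. Their edgeR adjusted p-values were 0.0292 and 6.64e-14. The first was not called without Tex15HT 7 (edgeR adjusted p = 1.0) or Tex15HT 18 (0.699), while the second was called without any 1 of the 4 samples. With each cytosine capped at 4 calls neither was called. The nearest placed promoter is that of Eif4enif1, and RefSeq lists Sfi1 among the genes before it. The tile at 3094001-3095000 was lower by over 30 points as well.

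On chromosome 8 the called tiles were CpG-rich and only partly methylated in heterozygous samples, which differed from each other. The tile at 20019001-20020000 was at 18.3% and 42.5% in Tex15HT 7 and 18, and at 1.14% and 1.45% in the knockouts (edgeR adjusted p = 0.0146). The tile at 19785001-19786000 was at 19.5% and 40.1% against 1.73% and 0.744% (edgeR adjusted p = 0.0157). Neither was called without Tex15HT 7 (edgeR adjusted p = 0.0654 and 0.24) or without Tex15HT 18 (1.0 for each). The 5 called tiles of chromosome 17 formed an interval from 39981001 to 39986000, between Gm33595 and Cenpq, where RefSeq also places Rn18s-rs5, a ribosomal RNA gene. Its tile at 39984001-39985000 was at 12.6% and 14.9% against 9.75% and 3.34%, and in the tile at 39982001-39983000 the groups overlapped. The last tile called lower, at 3:5860001-5861000, was at 6.06% and 10.9% against 1.99% and 3.17%. The 3 tiles called higher lay on chromosome 2 between 98502001 and 98508000. The largest of these gains, at 98507001-98508000, was from 39.0% and 40.3% to 42.0% and 41.9% on 2506965 to 6349975 calls.

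The remaining runs of 3 lower tiles were seen at moderate depth. The run at 4:121670001-121673000 was at 83.4% and 80.6% in heterozygous and 16.7% and 20.2% in knockout samples, on 210 to 391 calls. The run at 10:67134001-67137000 was at 89.5% and 88.3% against 3.37% and 11.4%. The run at 3:23171001-23174000 was at 77.6% and 74.0% against 1.15% and 18.8%, and that at 6:70749001-70752000 at 86.7% and 92.4% against 12.1% and 40%. These levels are those that chose the runs.

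The CpG-rich promoters that could be placed were for the most part unmethylated in all samples. RefSeq windows were placed in the table by matching the spacing of 9 or more CpGs. Of 31396 autosomal windows, 14504 held that many, so CpG-poor promoters were left out. Matching placed 8082 windows, of which 4423 had 10 or more calls in each sample. In heterozygous samples 97.0% of these were under 5%, and 23 were over 50%. edgeR called 0 promoters, with 6 lower and 14 higher before adjustment, and limma called 5 (0.113%), namely Gm52510, Gm13286, Plagl1, Hymai and Dmrtb1. The last 3 were listed at 100% in Tex15KO 3 and at 10.4% to 21.6% in Tex15KO 16. Both knockouts were over 15 points below both heterozygous samples at 4 promoters (0.0904%) and above them at 4 (0.0904%). The lower ones were Gm52510, Cck, Rpl39l and Pou5f1, and the higher ones Fkbp6, Plagl1, Hymai and Jmjd8. The Pou5f1 window was read at far above ordinary depth, as described below. The windows of Plagl1 (mm9 10:12810388-12810687) and Hymai (10:12810401-12810700) overlap and share calls, so they are not separate results. Plagl1 was also the main exception among imprinting control regions in Tex15KO 3. At Fkbp6 the result depended on the window: 1 was at 4.65% and 3.57% against 35.9% and 26.9%, and another placed window at 12.8% and 7.51% against 0% and 31.5%.

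The promoter of Gm52510 changed most. It was at 97.6% and 78.4% in heterozygous samples, on 42 and 51 calls, and at 19% and 13.6% in knockout samples, on 105 and 66 calls (limma adjusted p = 0.00232, edgeR adjusted p = 1.0). Both knockouts lay far below both heterozygous samples, by 71.7 points on average. Its sequence (chr2:52131488-52131787, plus strand, RefSeq GRCm38.p6) is shown because all 14 CpGs, in capitals, were measured.
Gm52510: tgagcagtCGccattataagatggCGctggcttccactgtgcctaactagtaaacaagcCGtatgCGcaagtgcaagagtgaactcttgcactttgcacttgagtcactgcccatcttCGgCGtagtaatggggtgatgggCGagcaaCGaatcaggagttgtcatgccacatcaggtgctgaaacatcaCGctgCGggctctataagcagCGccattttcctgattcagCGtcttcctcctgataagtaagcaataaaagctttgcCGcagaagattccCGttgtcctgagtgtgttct
It shares a stretch of 23 bases with the window of Gm33462, which held family 2-6-2-4-13, and this stretch was found in 4 of 32851 promoter windows (0.0122%).
Shared stretch: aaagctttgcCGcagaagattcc
Cck, which encodes the hormone cholecystokinin, was at 97.3% and 100% against 50% and 74.5%, on 20 to 55 calls. Rpl39l, a ribosomal protein gene expressed in the testis, was at 19% and 18.4% against 0% and 0%, where 0 of 34 and 0 of 39 calls allow up to 8.82% and 7.69%.

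Pou5f1 encodes the pluripotency factor OCT4, and its regulatory sequence drives the reporter that all samples carried. Calls placed at its promoter were 51.6% and 51.5% methylated in heterozygous samples, of 698 and 814 calls. In knockout samples they were 5.2% and 12.9% methylated, of 519 and 1159 calls. Neither test called the promoter (limma adjusted p = 0.23, edgeR adjusted p = 1.0). The 250 bases before its start (chr17:35505782-35506031, plus strand, RefSeq GRCm38.p6) are shown because the largest difference of the locus lay there, with the 7 measured CpGs in capitals.
Pou5f1: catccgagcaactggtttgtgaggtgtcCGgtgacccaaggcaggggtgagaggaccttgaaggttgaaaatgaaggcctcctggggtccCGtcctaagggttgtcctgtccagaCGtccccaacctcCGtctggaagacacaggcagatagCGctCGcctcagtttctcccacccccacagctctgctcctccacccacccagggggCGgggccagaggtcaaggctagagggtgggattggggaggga
The depth at this locus was unlike that of the genome. Over 17.3 kb, at mm9 17:35634667-35652000, the median CpG had 108, 134, 68 and 163 calls in Tex15HT 7, Tex15HT 18, Tex15KO 3 and Tex15KO 16, against 2, 3, 0 and 4 over all autosomal CpGs. Of 230 CpGs in it, 11 were read at ordinary depth. These 11 lay from -1.15 to 0.049 kb of the start, so the bins near it mix both depths. Reporter copies and the endogenous gene cannot be told apart in these calls, so the levels may not be those of the endogenous gene.

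Within this interval the difference was largest near the start. In the 0.5 kb before it, levels were 52.5% and 50% in heterozygous and 3.69% and 11.6% in knockout samples. From 1 to 1.5 kb before it they were 73.7% and 74.8% against 39.1% and 33.2%, and in the first 0.5 kb after it 60.8% and 63.4% against 49.8% and 36.6%. Between these, from 0.5 to 1 kb before the start, where CpGs were read at ordinary depth, levels were 10% and 31.6% against 0% and 20%. The groups overlapped there, on 10 to 20 calls per sample. From 0.5 to 1 kb after the start, levels were 87.0% and 82.9% against 88.5% and 84.0%, and the groups overlapped. The 5 kb tile that holds the start was at 78.1% and 77.5% against 67.9% and 65.4%. edgeR called it (adjusted p = 0.00216) and limma did not (adjusted p = 0.925). The 1 kb tile that holds the start was called by neither test. Whether the number of reporter copies differed between pups was not tested.

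The level of all tested tiles did not separate the genotypes downward. The mean over tiles was 79.5% and 78.8% in heterozygous and 79.4% and 78.6% in knockout samples, a difference of -0.137 points (exact permutation p = 0.667, two-sided). Of all calls, 51.4% and 51.2% were methylated in heterozygous and 60.8% and 52.3% in knockout samples (exact permutation p = 0.333, two-sided, the smallest that 2 against 2 samples allow). The difference of 5.25 points was 1.10 points with the top 0.1% of coverage left out and 2.18 points with each cytosine capped at 4 calls. Without Tex15KO 3 it was 0.994 points.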

How the data were processed

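Whole-genome bisulfite libraries (Ovation Ultralow Methyl-Seq) were analysed from 4 pups, separate animals per the labels. The authors deposited 1 table of methylated and unmethylated call counts per CpG cytosine on mm9. The submitters' processing notes name BSMAP, Bismark and methylKit, without versions or settings. The sources used here give neither the conversion rate nor how duplicate reads were handled. No listed cytosine had fewer than 3 calls over either pair of samples, tested on the table.

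Strands were merged and counts summed in tiles of 1 kb, families of recurring CpG spacing (10 or more places, distances up to 999 bp) and RefSeq promoter windows. The main test was edgeR 4.0.16 (quasi-likelihood, no trend, an intercept per sample, Benjamini-Hochberg over all units). limma 3.58.1 on log2((methylated + 1)/(unmethylated + 1)), Fisher's exact test on pooled counts and exact permutation were also used. The scripts were tested on simulated data. edgeR's prior degrees of freedom were infinite, so a unit's p-value rests on a shared spread.

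Tiles named were the 12 largest called decreases and 5 largest increases with separate groups, families the 8 and 3 largest, and runs the 5 longest, besides the 5 largest called decreases with 200 or more calls. Other units were named after their values were seen. The members, lists and spacings were chosen with earlier results of these data known. Intervals are 95% Wilson, and limits for a count of 0 are 3 calls over the total.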

Additional observations from a re-analysis of the deposited data

Results flagged for a closer look

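The X chromosome was outside the comparison, which used autosomes. Of 350 X-linked tiles that met the same criteria, 32 were over 30 points lower in both knockouts than in both heterozygous samples and 0 were higher. That is 9.14% of these tiles, beside 0.544% lower and 0.0714% higher among the tested autosomal tiles. The 2 sets of tiles are unlike, so the shares are not directly comparable. Each autosome had 12084 to 32117 tested tiles, and the heterozygous means over autosomal tiles were 79.5% and 78.8%. The mean level over all 350 X-linked tiles was 49.6% and 47.8% in heterozygous and 40.6% and 41.2% in knockout samples. The difference was not tested, and no level of a control group other than these heterozygous samples was read.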

How the results depend on the processing

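No paired analysis was possible because the groups share no replicate numbers. Counts differed widely between tests. Against 14 tiles called by edgeR, limma called 0, Fisher's exact test on pooled counts 30527, edgeR with each cytosine capped at 4 calls 0, with the top 0.1% of coverage left out 0, with 5 kb tiles 26, and with a difference of at least 25 points as well 5. Leaving out 1 sample gave 15 to 16967 tiles, the highest without Tex15KO 16 and 313 without Tex15KO 3. Without Tex15HT 18 there were 6 lower and 10 higher, against 11 and 3. Of the 13 named tiles, 4 lost their call when Tex15HT 7 was left out, 4 without Tex15HT 18, 6 without Tex15KO 3 and 6 without Tex15KO 16. Of 11 families, limma called 0 and Fisher's test 145, and leaving out 1 sample gave 6 to 49, with 6 without Tex15HT 18, 22 without Tex15KO 3 and 49 without Tex15KO 16. Of promoters, where edgeR called 0, limma called 5 and Fisher's test 54, and leaving out 1 sample gave 0 to 10 (alternatives for promoters were chosen after seeing the data). The 2154 lower tiles (0.544% of those tested) became 310 at 30 calls (0.644%), 1419 at 5 kb (0.382%), 689 at 10 CpGs (0.696%) and 920 at a margin of 50 points (0.232%), and 3210 to 28154 without 1 sample. The difference in level of 5.25 points over all calls was -0.137 as a mean over tiles, 1.13 at 30 calls, 2.18 with the cap, 1.10 without the top 0.1% of coverage, 3.25 at 5 kb, 2.20 at 10 CpGs, and 0.994 to 9.52 without 1 sample. Direction turned in 2 cases: the tile 17:39981001 with cytosines capped at 4 calls (log2 fold change 1.71) and family 3-3-4-7-4 without the top 0.1% of coverage (1.65). The cause was not tested. Depth limits single tiles: the median tested tile had 20, 23, 25 and 31 calls in Tex15HT 7, Tex15HT 18, Tex15KO 3 and Tex15KO 16.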

Other observations

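Promoters of genes expressed in germ cells were read as a separate list, chosen with earlier results known. Of 36 genes, 29 were placed, and 27, 29, 14 and 29 of these had 10 or more calls in Tex15HT 7, Tex15HT 18, Tex15KO 3 and Tex15KO 16. Their median level was 1.82%, 2.33%, 0% and 2.86%. Over 20% were 4, 0, 2 and 2 promoters. Dmrtb1, a regulator of spermatogonia, was at 1.64% and 0% in heterozygous samples, at 100% on 117 calls in Tex15KO 3 and at 10.4% on 182 calls in Tex15KO 16. Dazl, an RNA-binding protein of germ cells, was at 2.99% and 0% against 0.858% and 25.8%. The knockouts did not share a direction at Dazl. Other promoters of the list went the other way. Those over 20% in Tex15HT 7 were Hormad1, Syce1, Syce3 and Sycp3, and none of these was over 20% in another sample. Hormad1 and Sycp3 had no calls in Tex15KO 3. Syce1 was at 41.7% and 0% in heterozygous and 0% and 7.55% in knockout samples. Rpl39l, described above, was lower in both knockouts. No promoter of the list was over 20% in both knockouts.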
